A study of Mus musculus with 9 samples.

Results

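Of the 55471 genes in the files, 10 genes that handle inorganic phosphate and pyrophosphate or bind mineral were followed: Enpp1, Ank, Alpl, Phospho1, Slc20a1, Slc20a2, Mgp, Spp1, Ibsp and Sp7. They were found by gene symbol, through the Ensembl identifier, and all 10 passed the filter on low counts. RNA was sequenced from 9 cultures of primary articular chondrocytes isolated from the knee joint surfaces (femoral condyle and tibial plateau) of wild-type mice at postnatal day 5. The 3 Control cultures were infected with Ad-Control, an adenovirus used for comparison. The 3 Ad-OSCAR cultures were infected with an adenovirus carrying OSCAR, a collagen receptor best known from osteoclasts. The 3 Ad-OSCAR + 5-ASA cultures were infected in the same way and then treated with 5-aminosalicylic acid (5-ASA, mesalazine) at 10 µM, an anti-inflammatory drug tested in the study as a blocker of OSCAR binding to collagen. By the study's methods all 9 cultures, controls included, grew on plates coated with COLpep, a collagen-II peptide that OSCAR binds, and without IL-1β. No group was uninfected, none was grown without COLpep, and none combined 5-ASA with the control virus, so the drug was seen only in OSCAR-overexpressing cells. The labels and the methods text disagree on the schedule: 3 days of culture, an MOI of 400 and 36 h from infection to the drug by the labels, and 2 days, an MOI of 800 and 24 h with the drug by the methods.

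Mineral formation depends on the ratio of inorganic phosphate to pyrophosphate, which blocks the growth of hydroxyapatite crystals. ENPP1 makes extracellular pyrophosphate from ATP and ANK brings pyrophosphate and ATP to the cell surface, while tissue-nonspecific alkaline phosphatase, encoded by Alpl, breaks pyrophosphate down to phosphate, and PHOSPHO1 releases phosphate inside matrix vesicles. Articular cartilage normally stays free of mineral, hypertrophic growth plate cartilage does not, and calcium crystals are common in osteoarthritic joints.

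Total counts ranged from 19733464 to 28192769 per culture. Oscar, the gene carried by the virus, had 3 to 4 counts in Control, 173445 to 187278 in Ad-OSCAR and 80766 to 94199 in Ad-OSCAR + 5-ASA cultures, which matched the labels. Its level in the treated cultures was 1.96-fold lower than in the untreated Ad-OSCAR cultures (log2 fold change -0.97, SE 0.06, edgeR quasi-likelihood adjusted p = 1.76e-08). The drug-treated cultures therefore differed from the Ad-OSCAR cultures in transgene RNA as well as in the drug, and the part of the transgene level in the results below was not tested. The labels do not say whether the cultures of a group came from separate animals, and the p-values measure only the spread between these cultures.

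OSCAR overexpression moved all 10 genes, and not in a single direction. Enpp1, Slc20a1 and Spp1 rose, and Ank, Alpl, Phospho1, Slc20a2, Mgp, Ibsp and Sp7 fell. Higher calls thus took 3 of 10 members, where 32.7% of the 15362 genes tested were called higher, and lower calls took 7 of 10, where 32.2% were called lower. The median absolute log2 fold change was 1.35 over the members and 0.38 over all genes tested. Of the members 6 of 10 differed by more than 2-fold, beside 2769 of the 15362 genes tested. The members and the wider lists below were chosen with earlier results of these data known. Their comparisons with all genes are therefore descriptions only. Under the study's criteria for OSCAR DEGs (an absolute log2 fold change over 1.5 and an adjusted p below 0.05), 4 members were DEGs, Alpl, Spp1, Ibsp and Sp7, against 9.95% of all genes tested. 5-ASA raised 4 members over the Ad-OSCAR level, Alpl, Ibsp, Mgp and Slc20a2, where 10.4% of genes were called higher, and lowered 0, where 7.38% were called lower. Only Alpl and Ibsp of the members met the study's criteria for the drug (over 1.5-fold and an unadjusted p below 0.05), against 4.15% of genes. The study states these criteria for treated cultures against Control, so their use against Ad-OSCAR is a different comparison.

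**Figure D1:**
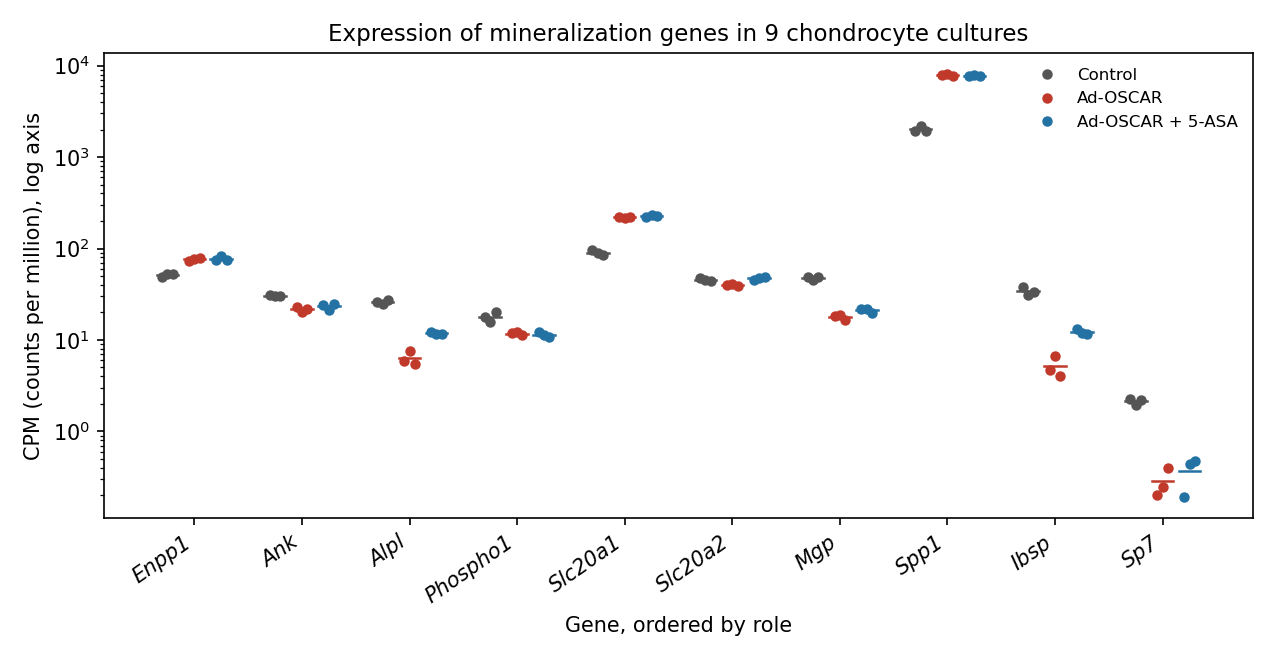
Expression of the 10 genes in each culture, in CPM (counts scaled to the library, whatever the gene's length) on a log axis, with 3 points per group and a line at the group mean. Spp1 lies between 1931 and 2183 CPM in Control and at or above 7635 CPM in every OSCAR-overexpressing culture, while the Ad-OSCAR + 5-ASA points of Alpl and Ibsp lie between those of the other groups.

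The genes that moved most include neighbours on mouse chromosome 5. Ibsp (chr5:104299171-104311469, GRCm38, plus strand) and Spp1 (chr5:104435118-104441050, plus strand) are members of the SIBLING cluster of acidic, mineral-binding phosphoproteins, 123.6 kb apart with Mepe between them, and they went in opposite directions. Alpl (chr4:137741733-137796384, minus strand) followed Ibsp most closely. The 250 bases before the RefSeq starts of these genes (GRCm38.p6) are shown because Spp1 moved against Ibsp and Alpl moved with it. Alpl has a pair of starts, and the first of the Spp1 starts is given. Capitals mark TGTGGT, the core letters bound by RUNX factors, read on either strand. The windows are chr5:104299037-104299286 for Ibsp, chr5:104434861-104435110 for Spp1, both plus, and chr4:137796385-137796634 and chr4:137766476-137766725 for the upstream and downstream starts of Alpl, both minus.
Ibsp: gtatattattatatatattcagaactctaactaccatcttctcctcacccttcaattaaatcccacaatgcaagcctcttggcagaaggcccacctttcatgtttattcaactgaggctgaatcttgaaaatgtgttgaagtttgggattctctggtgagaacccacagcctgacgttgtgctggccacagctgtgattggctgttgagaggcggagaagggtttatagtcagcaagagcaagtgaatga
Spp1: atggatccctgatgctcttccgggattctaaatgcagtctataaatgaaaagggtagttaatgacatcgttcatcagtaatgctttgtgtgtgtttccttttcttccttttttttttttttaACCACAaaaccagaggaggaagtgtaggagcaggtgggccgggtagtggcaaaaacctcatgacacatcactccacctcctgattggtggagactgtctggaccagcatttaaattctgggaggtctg
Alpl, upstream start: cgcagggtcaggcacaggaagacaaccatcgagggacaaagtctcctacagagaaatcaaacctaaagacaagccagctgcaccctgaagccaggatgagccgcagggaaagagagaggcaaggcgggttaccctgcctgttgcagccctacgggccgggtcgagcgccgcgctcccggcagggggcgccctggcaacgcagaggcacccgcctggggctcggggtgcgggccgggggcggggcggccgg
Alpl, downstream start: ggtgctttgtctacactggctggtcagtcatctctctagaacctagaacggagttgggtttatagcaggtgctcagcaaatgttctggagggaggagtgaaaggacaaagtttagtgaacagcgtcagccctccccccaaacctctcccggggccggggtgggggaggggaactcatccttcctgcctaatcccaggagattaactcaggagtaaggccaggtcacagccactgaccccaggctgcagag
RefSeq windows were found for 7 of the 10 members, with 10 windows in all, and none for Mgp, Slc20a2 and Sp7. TGTGGT stood in 3 of the 10, that of Enpp1 and those of the first starts of Spp1 and Slc20a1. The other windows of Spp1 and Slc20a1 held no match. As members without a window could not be searched, the matches were not compared with the direction of change. The AP-1 letters TGANTCA stood in 1, that of Phospho1. Over all 32851 RefSeq windows of this length, 14% held TGTGGT and 6.75% held TGANTCA on either strand. Both motifs were chosen after the values were seen. A match in letters is a description of the window only, and the starts in use in these cultures were not measured.

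Among the genes that supply pyrophosphate, Enpp1 and Ank went opposite ways. Enpp1 (chr10:24637914-24712159), the ectoenzyme that makes pyrophosphate, was at 48.3, 52.2 and 53.0 CPM in Control, 73.6, 77.5 and 78.3 CPM in Ad-OSCAR and 74.5, 82.1 and 75.1 CPM in Ad-OSCAR + 5-ASA cultures. Every OSCAR-overexpressing culture was above every Control culture, and the cultures with and without the drug overlapped. The increase with OSCAR was 1.49-fold (log2 fold change 0.58, SE 0.05, edgeR adjusted p = 2.56e-08), and the difference with 5-ASA was 0.02 (95% confidence interval -0.09 to 0.12, adjusted p = 0.883). Ank (chr15:27466677-27594909), the membrane protein of progressive ankylosis, was at 30.8, 30.2 and 30.0 CPM in Control, 22.7, 20.2 and 21.9 CPM in Ad-OSCAR and 24.4, 21.4 and 24.5 CPM in treated cultures. It fell 1.40-fold with OSCAR (log2 fold change -0.49, SE 0.07, edgeR adjusted p = 3.05e-06), with no overlap between those groups. The cultures with and without 5-ASA overlapped, at a difference of 0.11 (95% confidence interval -0.03 to 0.25, adjusted p = 0.272).

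The enzymes that release phosphate both fell, Alpl far more than Phospho1. Alpl was at 25.9, 24.7 and 27.4 CPM in Control, 5.94, 7.54 and 5.49 CPM in Ad-OSCAR and 12.2, 11.7 and 11.6 CPM in Ad-OSCAR + 5-ASA cultures. The groups did not overlap, and the treated cultures lay between the others. Alpl was 4.13-fold lower with OSCAR (log2 fold change -2.04, SE 0.09, edgeR adjusted p = 1.10e-12), 1.88-fold higher with the drug than without it (0.91, SE 0.10, adjusted p = 4.38e-06), and still 2.19-fold below Control in treated cultures (-1.13, SE 0.09, adjusted p = 1.99e-09). Per length the contrast was smaller. Alpl stood at 20.4, 18.7 and 20.1 TPM (transcript level corrected for transcript length and scaled to the library) in Control, 5.26, 10.2 and 6.02 TPM in Ad-OSCAR and 11.1, 11.2 and 12.2 TPM in treated cultures. The mean transcript length that RSEM assigned to Alpl was 2273 to 2429 bases in Control, 2097, 1400 and 1742 bases in Ad-OSCAR and 1726 to 1893 bases in treated cultures. Tested on log2(TPM + 1) with limma, the log2 fold change of Alpl with OSCAR was -1.39 (adjusted p = 5.88e-05), under the study's cutoff of 1.5, and with the drug 0.66 (adjusted p = 0.0350). The adjusted p of Alpl over all 17 alternatives ranged from 3.38e-109 to 6.64e-05 for OSCAR and from 1.30e-18 to 0.0350 for 5-ASA.

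Phospho1 (chr11:95824499-95832140), the matrix vesicle phosphatase, was at 17.8, 15.6 and 20.3 CPM in Control, 11.8, 12.1 and 11.3 CPM in Ad-OSCAR and 12.1, 11.4 and 10.8 CPM in treated cultures. It was 1.52-fold lower with OSCAR (log2 fold change -0.61, SE 0.09, edgeR adjusted p = 1.06e-05). With and without 5-ASA the cultures overlapped, with a difference of -0.03 (95% confidence interval -0.23 to 0.16, adjusted p = 0.852). Its level is uncertain, since it shares 1818 exonic bases with Zfp652 on the same strand and 1708 with Abi3 on the other, and its estimated counts were not whole in 9 of 9 cultures.

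The sodium-phosphate cotransporters that bring phosphate into the cell moved apart. Slc20a1, which encodes PiT-1 (chr2:129198764-129211616), was at 96.1, 89.9 and 84.5 CPM in Control, 220.6, 218.2 and 222.4 CPM in Ad-OSCAR and 222.7, 232.0 and 228.5 CPM in treated cultures. It rose 2.44-fold with OSCAR (log2 fold change 1.29, SE 0.05, edgeR adjusted p = 7.79e-14), and with the drug the difference was 0.05 (95% confidence interval -0.05 to 0.15, adjusted p = 0.555), although the highest untreated and the lowest treated culture just failed to overlap. Its counts were not whole in 9 cultures and it overlaps Gm4430 and 9830144P21Rik on the other strand. Slc20a2, which encodes PiT-2 (chr8:22476788-22569612), was at 47.1, 45.3 and 44.1 CPM in Control, 40.2, 40.6 and 39.0 CPM in Ad-OSCAR and 45.4, 47.1 and 48.8 CPM in treated cultures. It had the smallest change of the members with OSCAR, a log2 fold change of -0.19 (SE 0.05, edgeR adjusted p = 0.00266). With 5-ASA it was higher by 0.24 (SE 0.05, adjusted p = 0.00191). Treated and Control cultures overlapped (0.05, 95% confidence interval -0.05 to 0.15, adjusted p = 0.393). Neither call of Slc20a2 held on TPM values, where the adjusted p was up to 0.0795 for OSCAR and 0.388 for 5-ASA, and over all alternatives it started from 0.00167 and 0.00096.

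The mineral-binding proteins held both the largest increase and one of the largest decreases. Mgp (chr6:136872435-136875823) encodes matrix Gla protein, a vitamin K-dependent inhibitor of calcification made by chondrocytes. It was at 48.3, 45.5 and 48.4 CPM in Control, 18.2, 18.5 and 16.6 CPM in Ad-OSCAR and 21.9, 21.7 and 19.9 CPM in treated cultures. The groups did not overlap. Mgp fell 2.67-fold with OSCAR (log2 fold change -1.41, SE 0.06, edgeR adjusted p = 3.44e-13) and was 1.19-fold higher with the drug (0.25, SE 0.06, adjusted p = 0.0091). Without the third Ad-OSCAR culture that drug difference was 0.20 and no longer passed (adjusted p = 0.0541, against 0.00558 to 0.0541 over all alternatives).

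Spp1 encodes osteopontin, a secreted phosphoprotein that binds crystals and integrins and in its phosphorylated form slows crystal growth. It was at 1931, 2183 and 1934 CPM in Control, 7836, 8084 and 7720 CPM in Ad-OSCAR and 7712, 7983 and 7635 CPM in treated cultures. OSCAR-overexpressing cultures were all far above Control, and those with and without the drug overlapped. The increase was 3.91-fold (log2 fold change 1.97, SE 0.05, edgeR adjusted p = 7.93e-17), and 5-ASA was associated with a difference of -0.02 (95% confidence interval -0.11 to 0.07, adjusted p = 0.827). Spp1 shares 309 exonic bases with the gene model Gm42793 on the same strand, which had at most 701 counts in a culture against 36585 or more for Spp1.

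Ibsp encodes bone sialoprotein, which promotes the first deposition of hydroxyapatite and marks hypertrophic chondrocytes and osteoblasts. It was at 37.8, 31.3 and 33.2 CPM in Control, 4.65, 6.68 and 4.07 CPM in Ad-OSCAR and 13.2, 12.0 and 11.7 CPM in treated cultures. As with Alpl, the groups did not overlap and the treated cultures stood in between. Ibsp was 6.69-fold lower with OSCAR (log2 fold change -2.74, SE 0.12, edgeR adjusted p = 5.95e-13), 2.41-fold higher with the drug (1.27, SE 0.13, adjusted p = 2.44e-06) and 2.77-fold below Control in treated cultures (-1.47, SE 0.11, adjusted p = 9.15e-10). The second Ad-OSCAR culture was the highest of its group for both Alpl and Ibsp, and without it the drug differences were larger, 1.05 for Alpl and 1.49 for Ibsp.

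Sp7 (chr15:102356606-102367182) encodes osterix, the zinc finger factor that drives osteoblast differentiation downstream of RUNX2. It was barely expressed, with 48, 47 and 42 counts in Control, 6, 6 and 11 in Ad-OSCAR and 5, 12 and 12 in treated cultures, or 1.93 to 2.27 CPM against 0.204 to 0.400 and 0.192 to 0.474 CPM. The fall with OSCAR was 7.43-fold (log2 fold change -2.89, SE 0.32, edgeR adjusted p = 3.23e-07). The treated and untreated Ad-OSCAR cultures overlapped, and at this depth the difference of 0.38 had a 95% confidence interval of -0.51 to 1.26 (adjusted p = 0.603).

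**Figure D2:**
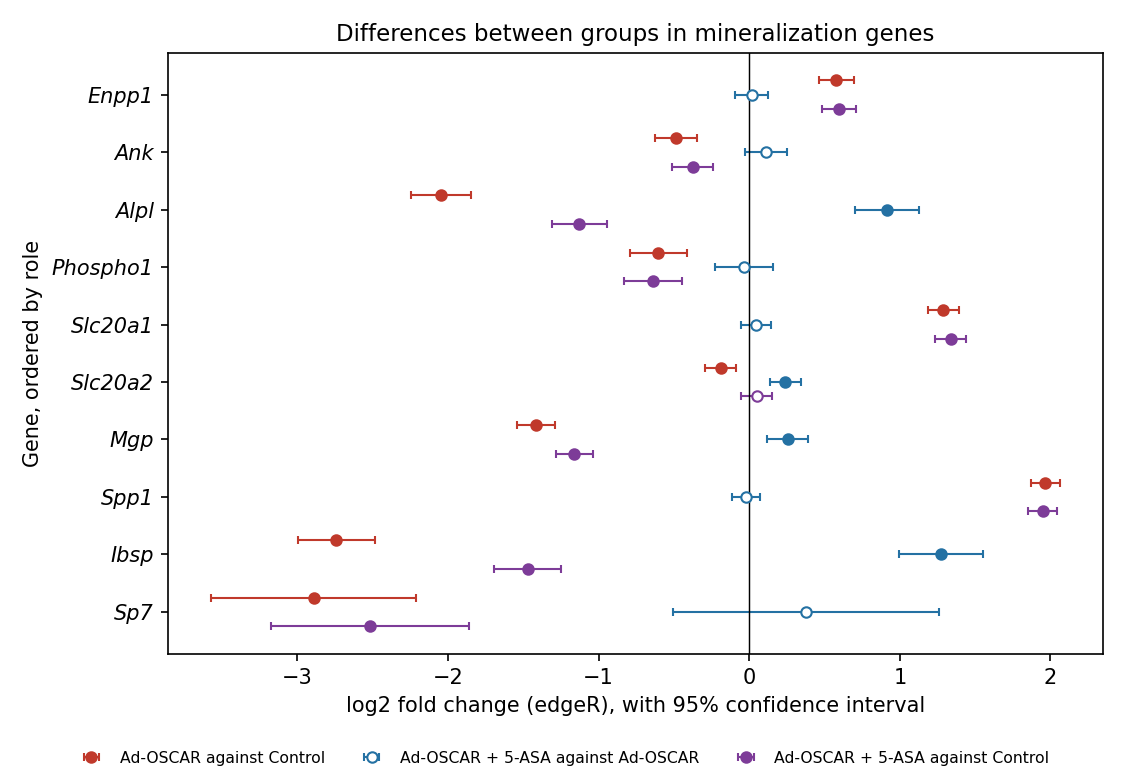
Log2 fold changes of the 10 genes from the edgeR fit (x axis) with 95% confidence intervals, in 3 comparisons. Filled points passed an adjusted p below 0.05. For the drug against Ad-OSCAR alone, only the points of Alpl, Slc20a2, Mgp and Ibsp are filled, and for the drug against Control only that of Slc20a2 is open.

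Against Control, the Ad-OSCAR + 5-ASA cultures still differed in 9 of the 10 members. Enpp1 (log2 fold change 0.59), Slc20a1 (1.34) and Spp1 (1.95) were higher, 3 members where 31.4% of genes were called higher. Ank (-0.37), Alpl, Phospho1 (-0.64), Mgp (-1.16), Ibsp and Sp7 (-2.52) were lower, 6 members where 31.8% of genes were called lower. By the study's criteria for the drug, 8 members were DEGs in this comparison, against 29.9% of genes. The study used the same comparison, and the 4592 genes that passed here are far more than the DEGs it reports. The reason was not tested. The comparisons between groups share their Ad-OSCAR or Control cultures and are not independent of each other.

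**Figure D3:**
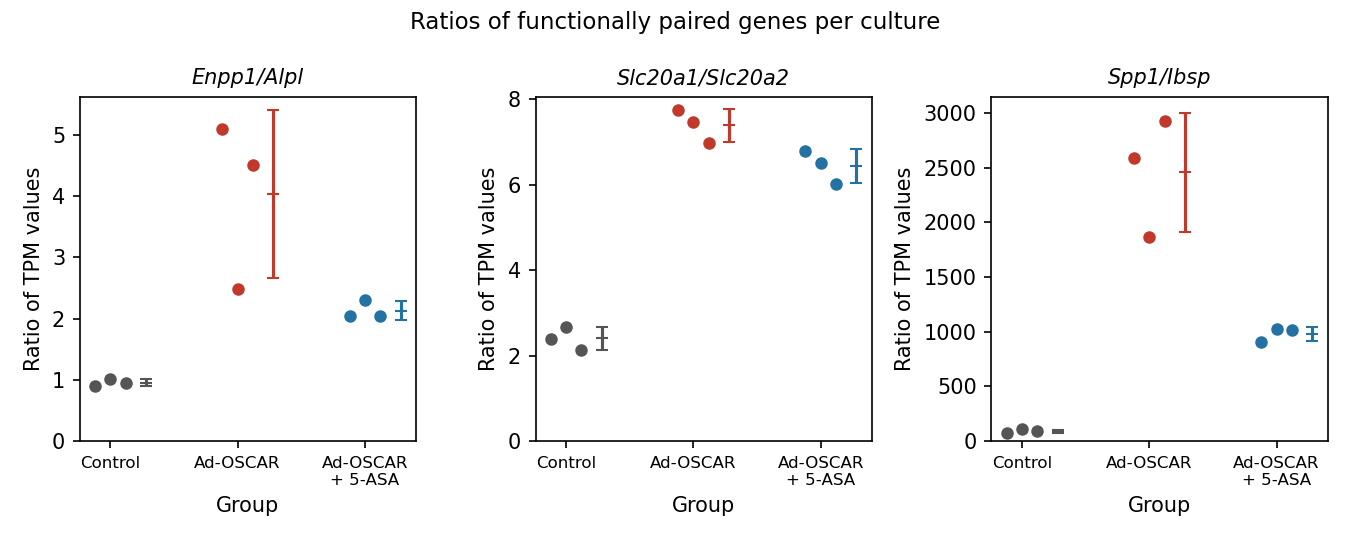
Ratios of TPM values in each culture (y axes from 0) for Enpp1 over Alpl, Slc20a1 over Slc20a2 and Spp1 over Ibsp, with the mean and SD of 3 cultures beside the points. In each panel the Control points lie lowest and the Ad-OSCAR points highest, with the treated cultures in between.

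The balance of pyrophosphate-making to pyrophosphate-degrading enzyme RNA shifted with these changes. On the TPM scale, the level of Enpp1 over that of Alpl was 0.898, 1.01 and 0.955 in Control, 5.09, 2.48 and 4.51 in Ad-OSCAR and 2.04, 2.30 and 2.04 in treated cultures. The RNAs of both enzymes were thus at near equal level in Control, and Enpp1 stood above Alpl in every OSCAR-overexpressing culture. The ratio of Spp1 to Ibsp was 78.8 to 107.6 in Control, 1861 to 2925 in Ad-OSCAR and 904 to 1024 in treated cultures. The ratio of Slc20a1 to Slc20a2 was 2.14 to 2.68, 6.98 to 7.74 and 6.01 to 6.79. The 3 ratios restate the genes' own values and were not tested.

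Compared per length within a group, Spp1 was by far the most abundant of the members, at 2727 ± 210 TPM (SD, n = 3) in Control and 10836 ± 47.6 TPM in Ad-OSCAR. In Control it was followed by Mgp (184 TPM), Slc20a1 (57.2 TPM), Ibsp (29.9 TPM), Phospho1 (27.6 TPM), Slc20a2 (23.9 TPM), Alpl (19.7 TPM), Enpp1 (18.8 TPM), Ank (16.9 TPM) and Sp7 (1.23 TPM). Within this order only Ibsp and Phospho1, and Alpl and Enpp1, overlapped as neighbours. In Ad-OSCAR cultures Slc20a1 (156 TPM) passed Mgp (69.4 TPM), Enpp1 (26.4 TPM) came next, and Alpl (7.17 TPM) and Ibsp (4.57 TPM), which overlapped, stood last before Sp7 (0.177 TPM). In treated cultures the order of the means was that of Ad-OSCAR, with Enpp1 overlapping Slc20a2 and Ank overlapping Alpl.

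Across the 9 cultures, the gene whose log2 CPM followed Alpl most closely among all other genes tested was Ibsp, and that of Ibsp was Alpl (Pearson's r = 0.9975 for the pair, a description over 9 cultures, which fall into 3 group levels). For the other members with a mean of at least 1 CPM, the closest genes were Dpep2 for Enpp1 (r = 0.9960), Zfp275 for Ank (0.9928), Thop1 for Phospho1 (0.9869), Hps5 for Slc20a1 (0.9988), Usp22 for Slc20a2 (0.9824), Ssr4 for Mgp (0.9995) and the chemokine gene Cxcl1 for Spp1 (0.9993).

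Beyond the members, 16 other genes of phosphate, pyrophosphate and matrix vesicle biology were listed. Of these, 13 were tested, 3 rising and 7 falling with OSCAR, where 32.7% of all genes rose and 32.2% fell, at a median of -0.50 on the log2 scale against 0.02 over all genes. Smpd3, the neutral sphingomyelinase whose loss in mice impairs skeletal mineralization, was at 14.4, 9.37 and 10.5 CPM in Control and at 0.205 to 0.373 CPM in Ad-OSCAR (log2 fold change -5.19, SE 0.24, edgeR adjusted p = 1.46e-12). Nt5e encodes CD73, which makes adenosine from the AMP that ENPP1 leaves, and rose from 210 to 236 CPM in Control to 935 to 964 CPM (2.10, SE 0.05, adjusted p = 8.73e-17). The vesicle annexin gene Anxa2 (-1.52) and Ppa1, the cytosolic inorganic pyrophosphatase (-1.13), fell. 5-ASA raised 3 of these 13 genes and lowered 1, where 10.4% of all genes rose and 7.38% fell, and each difference was small: Anxa6 by 0.27, Anxa2 by 0.21 and Nt5e by 0.15 were higher, and Anxa5 (-0.24) was lower.

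Of 16 other mineral-binding matrix proteins and the enzymes that modify them, 9 were tested, 2 rising and 6 falling with OSCAR beside the same 32.7% and 32.2% of all genes, at a median of -0.84 on the log2 scale. Ucma, a Gla-rich inhibitor of calcification made by chondrocytes, was at 197 to 231 CPM in Control and 0.543 to 0.837 CPM in Ad-OSCAR (log2 fold change -8.21, SE 0.11, edgeR adjusted p = 3.09e-20). Vkorc1, which recycles the vitamin K needed to activate Gla proteins, fell by 1.48 on the log2 scale. The keratan sulfate proteoglycan gene Omd fell by 3.68 on that scale. Fam20c, the kinase that phosphorylates osteopontin and other SIBLING proteins, went from 47.7 to 54.2 CPM in Control to 335 to 359 CPM in Ad-OSCAR (2.76, SE 0.06, adjusted p = 4.78e-17). With 5-ASA, Fam20c was lower (-0.38, adjusted p = 8.80e-05), while Fam20a (0.45), a pseudokinase that activates FAM20C, and Sparc (0.20), encoding the collagen-binding osteonectin, were higher. That made 2 genes up and 1 down of 9, beside 10.4% and 7.38% of all genes.

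Of 12 transcription factors of osteogenic and hypertrophic cells, 11 were tested, 2 rising and 8 falling with OSCAR beside 32.7% and 32.2% of all genes, at a median of -0.76 on the log2 scale. Foxa2 (-4.82), Dlx5 (-2.09) and Mef2c (-1.15), factors of chondrocyte hypertrophy and bone formation, fell. Runx2, upstream of Sp7, was at 26.1, 26.7 and 26.1 CPM in Control and 34.8, 31.6 and 34.9 CPM in Ad-OSCAR (0.36, SE 0.05, edgeR adjusted p = 1.28e-05), the opposite direction to Sp7. Zfp521, which represses RUNX2 activity, was the only gene of these 11 to change with 5-ASA (0.29, SE 0.05, adjusted p = 0.000322), beside 10.4% of all genes higher and 7.38% lower. Against Control, treated cultures had 4 genes higher and 6 lower of the 13 tested in the phosphate list, 2 and 6 of 9 in the matrix list and 2 and 8 of 11 in the transcription factor list, where 31.4% of all genes were higher and 31.8% lower.

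**Figure D4:**
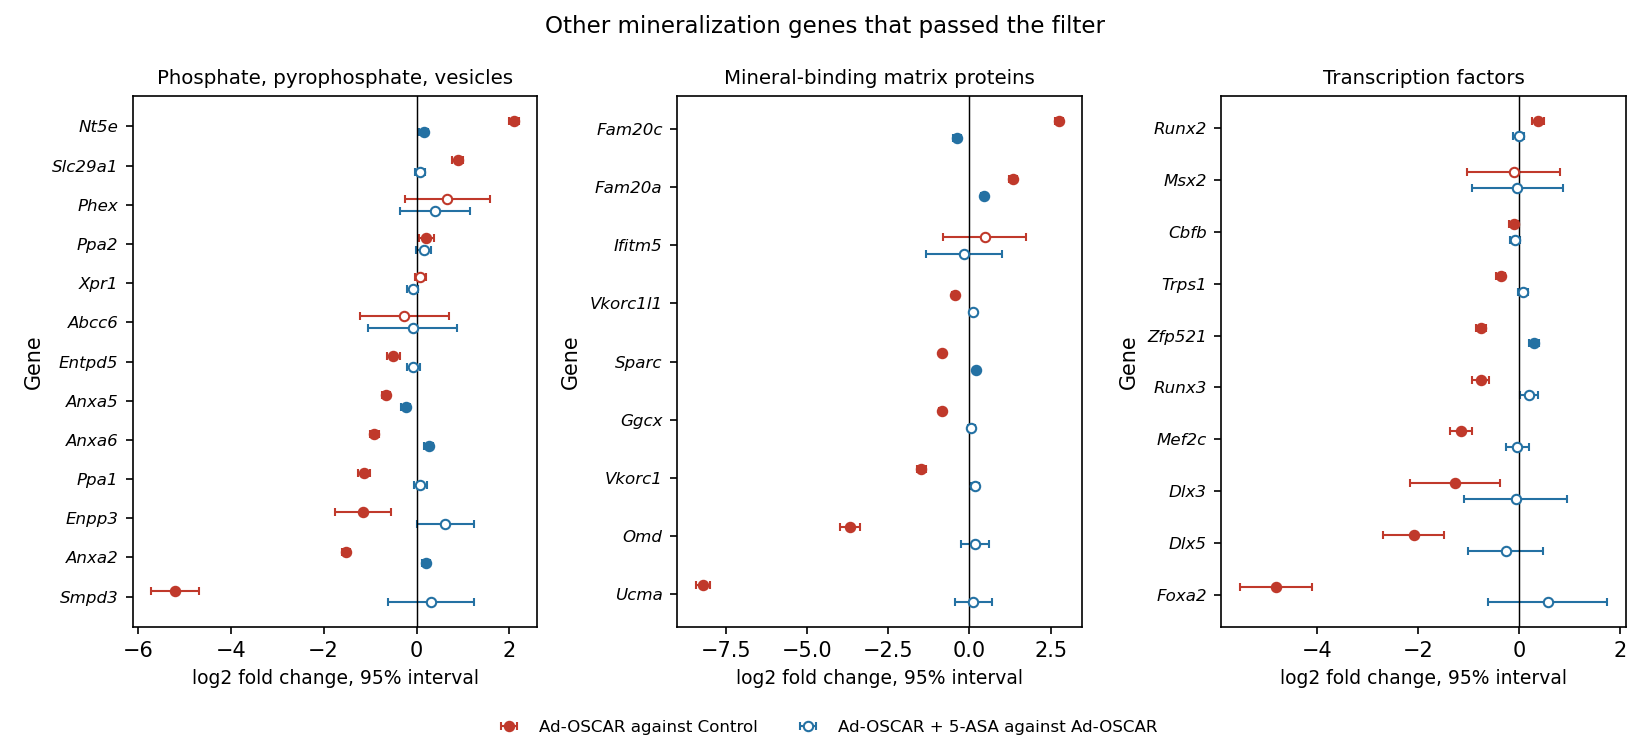
Log2 fold changes (x axes) with 95% confidence intervals for tested genes of 3 wider lists, for OSCAR against Control and for 5-ASA against Ad-OSCAR, filled where the adjusted p was below 0.05. Smpd3 (-5.19), Ucma (-8.21) and Foxa2 (-4.82) lie farthest to the left of their panels for OSCAR, and the drug points lie near 0.

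Markers of the cell types that express these genes moved too. The 10 chondrocyte markers summed to 37908 to 43532 in Control, 2366 to 2697 in Ad-OSCAR and 2827 to 3280 CPM in treated cultures, mostly from Col2a1. All 10 were detected, in keeping with the labelled cell type in Control, and all 10 were called lower in the other groups. With OSCAR the log2 fold changes ran from -1.09 (Hapln1) to -7.47 (Matn3), with Col2a1 at -3.97. In such bulk samples fewer cells of a type and less RNA per cell cannot be told apart. The 10 osteoblast markers summed to 13224 to 14475, 3596 to 4059 and 4512 to 5361 CPM, nearly all from the collagen-I genes Col1a1 and Col1a2. Without those, the other 8 summed to 29.1 to 30.0, 37.4 to 41.0 and 38.1 to 39.5 CPM, mostly from Runx2, Sost was at 0 in all cultures and Bglap was at or below 0.255 CPM. The 5 hypertrophic markers summed to 3439 to 3768, 8071 to 8275 and 8415 to 9386 CPM, mostly from Mmp13. Without Mmp13 the other 4 summed to 70.0 to 73.0, 39.1 to 42.7 and 38.7 to 44.3 CPM.

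Among other cell types, 8 fibroblast or synovial lining markers summed to 4706 to 4889 CPM in Control, 7790 to 8314 CPM in Ad-OSCAR and 9364 to 9825 CPM in treated cultures, mostly from Col3a1. The list was mixed with OSCAR, with 2 of 6 tested genes higher, Col3a1 (log2 fold change 0.72) and Prg4 (1.86), and 3 lower, Thy1 (-2.53), Dpt (-2.08) and Pdgfra (-0.41). The 7 osteoclast markers include the viral Oscar, and without it the other 6 summed to 17.7 to 18.7, 18.4 to 18.8 and 17.4 to 18.7 CPM, with Dcstamp at 0 in all cultures. Behind this sum the tested genes moved in both directions with OSCAR. Acp5 fell (mean 12.6 to 8.22 CPM), and Ctsk (log2 fold change 0.59), Calcr (mean 0.0744 to 0.724 CPM) and Atp6v0d2 (0.0137 to 1.72 CPM) rose. The 8 macrophage markers summed to 5.59 to 7.61, 13.1 to 14.0 and 11.7 to 11.9 CPM, with C1qa at 0. Of these 3 were tested, and with OSCAR Cd68 (mean 1.99 to 8.21 CPM) and Lyz2 (3.55 to 4.77 CPM) rose, while Csf1r did not pass (log2 fold change -0.47, SE 0.33, edgeR adjusted p = 0.233). The 5 endothelial markers summed to 0.423 to 1.04, 2.09 to 2.80 and 1.35 to 1.79 CPM. Only Tek of these was tested. It was higher with OSCAR (log2 fold change 1.88, SE 0.25, edgeR adjusted p = 3.20e-06) and lower with 5-ASA (-0.69, SE 0.21, adjusted p = 0.0298). The part of the chondrocyte, collagen-I, hypertrophic and fibroblast markers in the changes of the 10 genes was not tested.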

How the data were processed

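Total RNA from 9 cultures of mouse articular chondrocytes, 3 per group, was made into stranded mRNA libraries. Per the labels and the study's methods, the authors aligned reads with STAR 2.7.1a to GRCm38 and counted with RSEM 1.3.1. Whether counting used strand is not given in the sources used here. The files deposited by the authors hold estimated counts per gene (fractional for 8.70% to 9.83% of genes), TPM, and mean transcript length. Symbols and coordinates were taken from GENCODE M21 (55144 of 55471 genes matched).

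Estimated counts were rounded and tested with edgeR 4.0.16 in R 4.3.3: TMM, filterByExpr by group (15362 genes left), and the quasi-likelihood F test with a single model of the 3 groups over all cultures. CPM values are TMM-scaled. Calls had a Benjamini-Hochberg adjusted p below 0.05 over all genes tested. The biological coefficient of variation was 5.11%. Standard errors were derived from the F statistic. Depth was 19733464 to 28192769 counts per culture. The pipeline was tested on simulated data. Alternatives were DESeq2 1.42.0, RLE scaling, no filter, a minimum of 10 counts in each culture, fits of only the 2 groups compared, a replicate block, limma 3.58.1 on log2(TPM + 1) or log2(TPM + 0.1), and leaving out each culture. Same-numbered cultures did not deviate together (mean correlation -0.0209, from -0.0723 to 0.0396), so the numbers were not taken as pairs. Members and lists were chosen with earlier results of these data known. Named beyond the 10 genes are Oscar, up to 4 called genes per wider list and comparison with the largest changes and a mean of at least 1 CPM, and the gene most correlated with each member. Runx2, Bglap and the genes named for the marker sums were named after their values were seen. One gene of the wider lists is counted but not reported here by name. Tables and plots were made with Python 3.11.15, pandas 2.3.3 and matplotlib 3.10.9.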

Additional observations from a re-analysis of the deposited data

How the results depend on the processing

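The counts of members called did not move under any of the alternatives that gave them by more than 1.5 times. Under the study's criteria, 2 members (Ibsp and Spp1) in place of 4 were OSCAR DEGs with limma on log2(TPM + 1). Sp7 had fewer than 10 counts in some cultures and could not be tested under that minimum, and its log2 fold change with OSCAR was -0.92 on log2(TPM + 1), where the added 1 is as large as its level. The direction turned only for differences that did not pass: with 5-ASA against Ad-OSCAR, Enpp1 was -0.11 with either TPM pseudocount, -0.016 without Ad-OSCAR replicate 1 and -0.031 without Ad-OSCAR + 5-ASA replicate 2 (-0.031 to 0.041 over the cultures left out), Phospho1 was 0.0036 without Ad-OSCAR + 5-ASA replicate 3 (-0.074 to 0.0036), and Slc20a1 was -0.090 and -0.091 with pseudocounts 1 and 0.1. Slc20a2 in treated cultures against Control was -0.064 and -0.066 with pseudocounts 1 and 0.1. On log2(TPM + 0.1) the median of all genes for 5-ASA against Ad-OSCAR was at -0.10. The cause was not tested.

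With the replicate number as a block, 10, 4 and 9 members were called for OSCAR against Control, 5-ASA against Ad-OSCAR and 5-ASA against Control, with Alpl at -2.04, 0.91 and -1.13, and the block changed no call among the 10 genes. Depth limits Sp7, with 5 to 12 counts in each OSCAR-overexpressing culture.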
